A study of Mus musculus with 14 samples.

Results

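Embryoid bodies of a Foxk1 knockout (KO) line were followed here from day 3 to day 5 of differentiation toward mesoderm. The comparison took the 2 KO libraries of day 5 against the 2 KO libraries of day 3, which are 4 of the 14 samples in the series, and it was made across all genes. Embryoid bodies are the aggregates that mouse embryonic stem cells form in suspension when they leave the undifferentiated state, and RNA of whole aggregates was read by paired-end sequencing. The series holds a control line, iHA-Foxk1, and the Foxk1 KO line at days 3, 5 and 10, and at day 10 also KO embryoid bodies given IWR1, an inhibitor of canonical Wnt signalling. Day 10 is not analysed here.

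The groups used were Foxk1 KO at day 3 and at day 5 and, for the test of where the KO course differs, iHA-Foxk1 at day 3 and at day 5, with 2 libraries in each. The labels name no compound for these groups and give 1 culture protocol for all of them, while the control libraries also carry the tag ND, which the labels do not explain. Libraries were made from poly(A) RNA with a TruSeq kit, either unstranded or stranded. The stem cells were kept with LIF and serum on irradiated fibroblast feeders, the feeders were reduced by a short plating step, and the cells were then shaken in a serum-containing mesodermal medium with transferrin and ascorbic acid. Each genotype is a single line, and what loss of Foxk1 does cannot be told apart from whatever else sets the lines apart. Nothing in the labels ties the libraries of a group to separate cultures. A p-value here thus covers only the spread between these samples, and that spread may be technical.

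The 8 libraries of days 3 and 5 held 10574194 to 11621032 estimated counts. Levels are given in CPM, the counts of a gene scaled by the size of its library to a common total, and 3 counts in 1 library stood for 0.254 to 0.298 CPM. Changes are log2 fold changes of day 5 over day 3 with their standard errors, fitted across all genes with edgeR's quasi-likelihood test, and p-values were adjusted by Benjamini-Hochberg over all 14430 genes tested. In brackets after the levels of a gene stand its log2 fold change ± SE and adjusted p, followed by the value without a library where leaving it out changed the call or moved the fold change by over 1.5 times. A gene is said to have risen or fallen where its adjusted p was under 0.05. The spread behind each test was estimated from all 4 groups together, with 4 residual degrees of freedom. The KO day 5 pair varied more than the other groups, as given below, so this shared spread can understate its error. Where a gene gained its call only by leaving out a day 5 library, the fold change alone is given. In such a fit 1 library stands for that group and the spread comes from the others.

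Foxk1 encodes a forkhead transcription factor that is known to bind the SIN3 repressor complex and to act in growth, metabolism and muscle progenitor cells. In the embryo, and in embryoid bodies that follow it loosely, epiblast cells shut down the pluripotency network and pass through the primitive streak, where Nodal, Wnt, FGF and BMP signals turn on genes such as T, Eomes and Mixl1. Cells that leave the streak become definitive endoderm or mesoderm, and lateral mesoderm gives rise to heart, endothelium and the first blood.

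Foxk1 itself (chromosome 5, 142401497 to 142462011 in mm10) was read first because it checks the labels. It stood at 16.2 and 16.5 CPM at day 3 and 38.2 and 33.6 CPM at day 5, against 86.3 and 76.4 CPM at day 3 and 134 and 133 CPM at day 5 in the control line. Every KO library thus lay below every control library, and within the KO line the day 5 pair lay above the day 3 pair (log2 fold change 1.14 ± 0.10, adjusted p = 1.58e-05). Which part of the gene was deleted was not given in the sources used here, so the counts left in the KO line may come from sequence outside it. Foxk2, its closest relative, was at 114 and 108 CPM at day 3 and 112 and 104 CPM at day 5 and did not pass the test (adjusted p = 0.609). Among 13 tested genes of the list of Foxk1, Foxk2 and SIN3 complex subunits, 2 rose and 7 fell, where over all genes tested 28.3% rose and 25.5% fell. The scaffold Sin3a read 182 and 186 CPM at day 3 and 141 and 152 CPM at day 5, a small fall (log2 fold change -0.32 ± 0.06, adjusted p = 0.00132).

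The 2 KO libraries of day 5 stood apart from each other. The chi-square of their counts was 20.5 per gene on average, against 1.87 for the KO libraries of day 3 and 1.86 and 3.89 for the control libraries of days 3 and 5. Of all genes tested, 1296 (8.98%) differed more than 2-fold between the day 5 libraries, and 424 did so between those of day 3. Of the genes called in the KO course, library 1 was further from day 3 than library 2 in 4893 (63.0%). On the first principal component, which held 61.1% of the variance, the KO libraries of day 3 lay at -83.2 and -84.6, day 5 library 1 at 45.9 and library 2 at 18.1, while the control libraries of day 5 lay at 99.5 and 105.0.

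The gap had a direction by lineage. All 19 endothelial genes were higher in library 1 (median log2 ratio 1.42), as were 6 of 6 globin genes (1.93), 16 of 20 blood genes (1.18), 20 of 22 Hox genes (1.32) and 17 of 20 mesenchymal matrix genes (0.91). In library 2, 23 of 25 pluripotency genes, 11 of 14 primed epiblast genes, 13 of 17 primitive streak genes and 14 of 17 gut endoderm genes were higher (median log2 ratios of library 1 over library 2 of -0.78, -0.84, -0.76 and -0.74). Over all genes tested the median ratio was 0.01. With 1 library on each side these ratios are descriptions without a test. Mitochondrial transcripts took 4.36% of the counts in library 1 and 2.63% in library 2, against 2.41% to 2.48% in KO at day 3. In the control libraries of day 5 they took 4.26% and 5.32%. Their part in the gap was not tested. Values are therefore given library by library below, in the order library 1 and library 2.

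**Figure D1:**
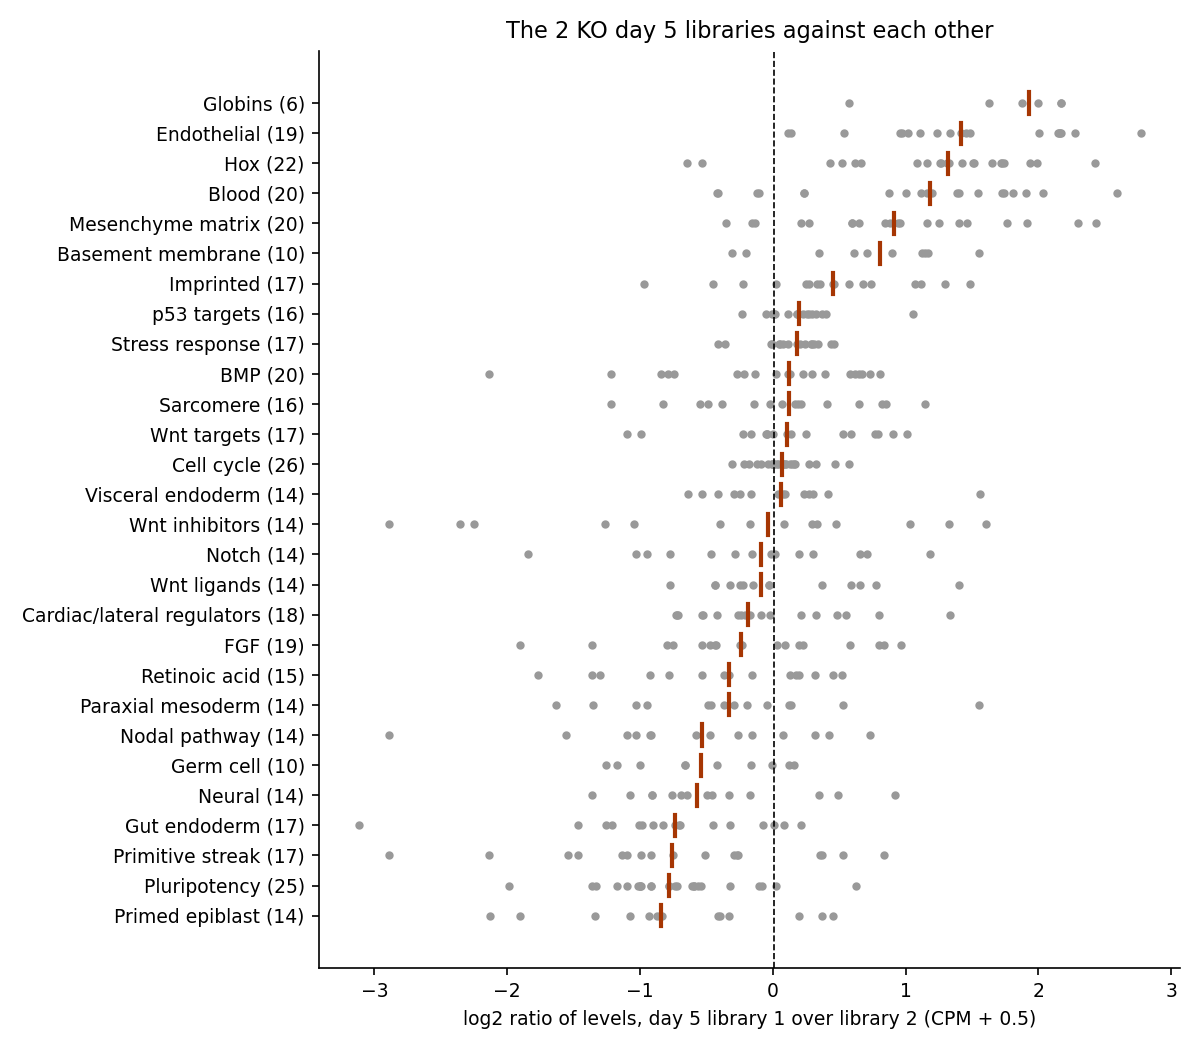
Log2 ratio of the level in KO day 5 library 1 over library 2 (CPM plus 0.5) for members of each gene list, with the number of members tested in brackets. Each grey point is a gene, red bars are list medians and the dashed line is the median of all genes tested, 0.01. Endothelial and globin members lie to the right, at medians of 1.42 and 1.93, and primed epiblast, pluripotency and streak members mostly to the left.

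In the KO course 7766 of 14430 genes were called (53.8%), of which 4084 rose and 3682 fell. These are 28.3% and 25.5% of all genes tested, and the counts of each list below are to be read against these shares. The rise was more than 2-fold for 1693 genes and more than 4-fold for 860, and the fall was more than 2-fold for 1263 and more than 4-fold for 536. The median log2 fold change over all genes was 0.03. In 77.2% of all genes tested, and in all 7766 called, the 2 day 5 libraries both lay above or both below those of day 3, so separate groups add nothing to a call. A gene without counts at day 3 could pass the filter on low counts only through another group, so where a list holds such genes its counts and median also reflect the filter and are descriptions only. Without day 5 library 1 the count was 7997 and without library 2 it was 8703, in fits that assume the lone day 5 library to vary like the other groups.

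**Figure D2:**
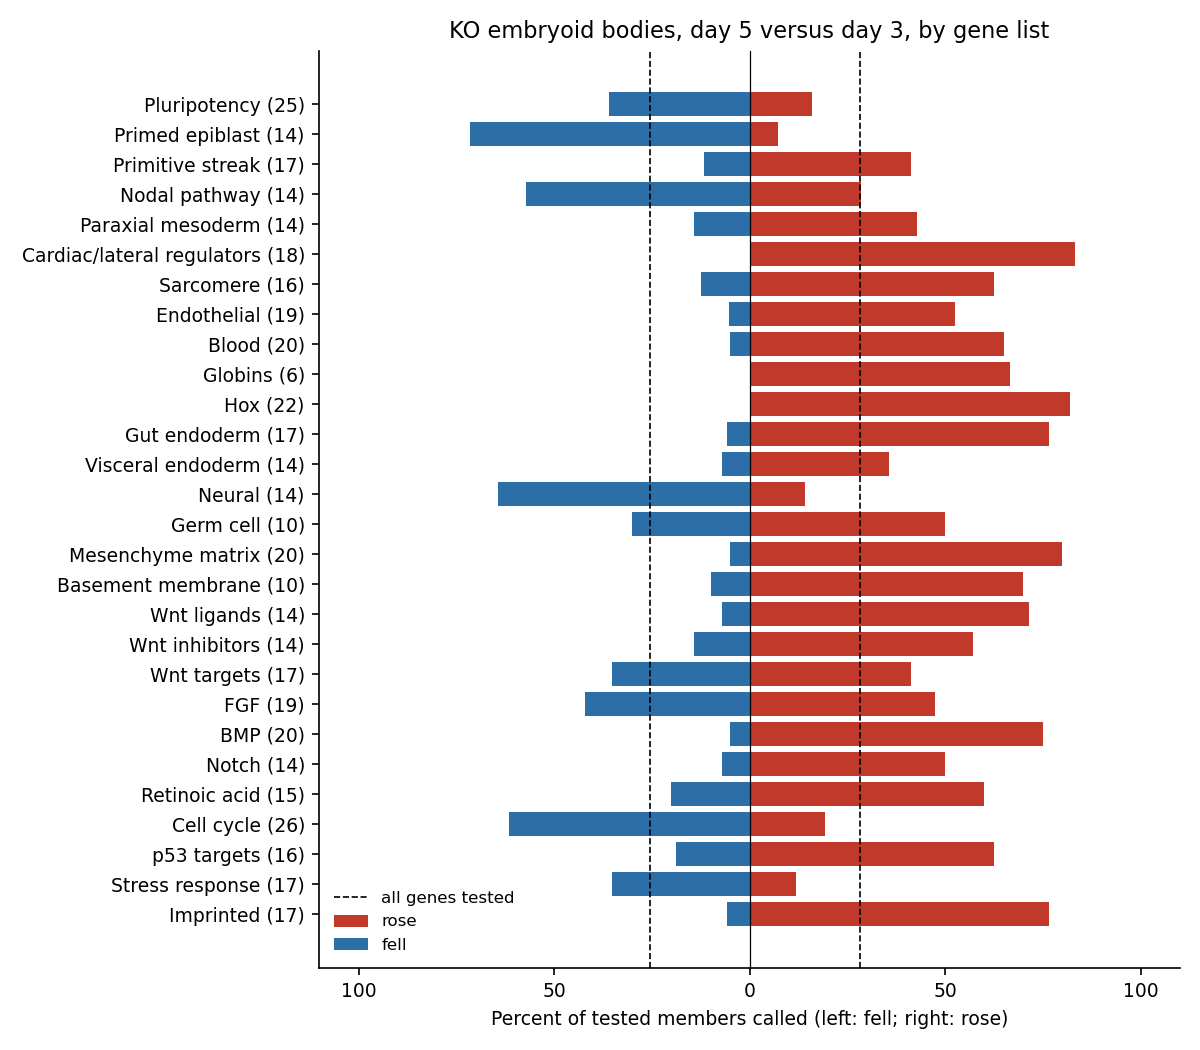
Percent of the tested members of each gene list that rose (red, to the right) or fell (blue, to the left) from day 3 to day 5 in KO embryoid bodies, with the number tested in brackets. Dashed lines mark all genes tested, 28.3% up and 25.5% down. Cardiac regulators, Hox, mesenchymal matrix and gut endoderm genes are among the lists that reach furthest to the right, and primed epiblast and neural genes among those that reach furthest to the left.

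Core pluripotency factors fell, while several genes of the naive state did not. Pou5f1 (chromosome 17, 35506018 to 35510772), which encodes Oct4, read 1046 and 1098 CPM at day 3 and 81.9 and 164 CPM at day 5, a log2 fold change of -3.12 ± 0.35, adjusted p = 0.00184, but -3.74 without day 5 library 2. Nanog, another core factor, read 251 and 269 CPM at day 3 and 30.3 and 52.6 CPM at day 5 (-2.64 ± 0.24, adjusted p = 4.66e-04). In both genes the day 5 libraries lay far below day 3, and library 2 kept more of the transcript than library 1. Sox2, the partner of Oct4, fell less, with 79.9 and 76.2 CPM at day 3 and 26 and 45.1 CPM at day 5 (-1.13 ± 0.22, adjusted p = 0.0056). Dppa2 fell as well, with 19.9 and 18.8 CPM at day 3 and 5.42 and 8.12 CPM at day 5 (-1.51 ± 0.19, adjusted p = 1.82e-04). In whole aggregates, fewer cells of a type and less RNA per cell cannot be told apart, here and in every group below.

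The naive factors Klf2, Klf5 and Esrrb did not pass the test. Klf2 read 15.8 and 18.2 CPM at day 3 and 14.2 and 21.6 CPM at day 5 (adjusted p = 0.766). Klf5 read 25.2 and 23.3 CPM at day 3 and 23.1 and 34.5 CPM at day 5 (adjusted p = 0.252, and log2 fold change 0.51 without day 5 library 1). Esrrb read 32.6 and 35.4 CPM at day 3 and 31.6 and 60.1 CPM at day 5 (adjusted p = 0.257, and log2 fold change 0.82 without day 5 library 1). The groups overlapped in all 3 genes. Tbx3, a T-box factor of naive cells that later marks heart and limb, rose with 16.1 and 17 CPM at day 3 and 140.5 and 91 CPM at day 5 (2.81 ± 0.22, adjusted p = 1.02e-04). Klf4 rose with 3.27 and 5.49 CPM at day 3 and 11 and 11.7 CPM at day 5 (1.37 ± 0.26, adjusted p = 0.00172). Of 25 pluripotency genes tested, 4 rose and 9 fell, and the median log2 fold change was -0.34. Without day 5 library 1 the counts were 9 and 11, and without library 2 they were 3 and 15. In the control line the median was -2.97, and the change was higher in KO than in control for 19 of the 25 genes and not called for the other 6, where 13.4% of all genes tested were higher and 10.8% lower.

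Most primed epiblast genes fell. Pou3f1, a POU factor of the primed epiblast, read 63.5 and 65.6 CPM at day 3 and 6.23 and 8.46 CPM at day 5 (-3.13 ± 0.15, adjusted p = 5.35e-07). Sox3, a SoxB1 factor of epiblast and neural plate, read 14.4 and 13.7 CPM at day 3 and 1.35 and 1.83 CPM at day 5 (-3.13 ± 0.38, adjusted p = 1.21e-04). The de novo DNA methyltransferase Dnmt3b read 1546 and 1544 CPM at day 3 and 241 and 461 CPM at day 5 (-2.14 ± 0.32, adjusted p = 0.00493). Its relative Dnmt3a read 249 and 252 CPM at day 3 and 103 and 89.6 CPM at day 5 (-1.38 ± 0.07, adjusted p = 5.68e-07). All 4 genes were lower in both day 5 libraries than in either of day 3. Of 14 genes tested 10 fell and 1 rose, with a median of -1.70. Otx2 and Fgf5, classical primed markers, were not called. Otx2 read 67 and 71.5 CPM at day 3 and 20.2 and 90 CPM at day 5 (adjusted p = 0.719). Its log2 fold change was 0.38 without day 5 library 1 and -1.80 without day 5 library 2, so of opposite sign. Fgf5 read 75.6 and 77.3 CPM at day 3 and 20.7 and 78.6 CPM at day 5 (adjusted p = 0.43). Its log2 fold change was 0.04 without day 5 library 1 and -1.91 without day 5 library 2. In both, day 5 library 2 was above day 3 and library 1 well below.

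Primitive streak genes showed no common fall. T (chromosome 17, 8434423 to 8442496), the Brachyury gene of nascent mesoderm, read 55.5 and 76.1 CPM at day 3 and 20.7 and 44.9 CPM at day 5, with both day 5 libraries below both of day 3, yet it did not pass the test (log2 fold change -1.0 ± 0.42, adjusted p = 0.111, and -1.70 without day 5 library 2). Eomes, a T-box factor of the anterior streak, read 140.3 and 165 CPM at day 3 and 62.8 and 119 CPM at day 5 (adjusted p = 0.143, and log2 fold change -1.31 without day 5 library 2). Mixl1 rose, with 10.3 and 9.89 CPM at day 3 and 18.6 and 14.4 CPM at day 5 (0.70 ± 0.13, adjusted p = 0.00183). Evx1, of the posterior streak, rose with 3.45 and 4.56 CPM at day 3 and 18.3 and 22.1 CPM at day 5 (2.33 ± 0.15, adjusted p = 3.15e-06). In Mixl1 and Evx1 both day 5 libraries lay above both of day 3.

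Lhx1 and Gsc, of the anterior streak and its organiser, rose. Lhx1 read 1.68 and 1.77 CPM at day 3 and 42.6 and 125 CPM at day 5 (5.59 ± 0.88, adjusted p = 0.00602, but 4.59 without day 5 library 2), with day 5 library 2 nearly 3 times as high as library 1 and both far above day 3. Gsc, a homeobox gene of the organiser, read 1.42 and 2.45 CPM at day 3 and 3.88 and 5.76 CPM at day 5 (1.31 ± 0.28, adjusted p = 0.0037). Cer1, a secreted antagonist of Nodal, BMP and Wnt, had no count at day 3 and 3.07 and 26 CPM at day 5, at least 114-fold higher when 3 counts over the day 3 pair are taken as the floor, but it was not called (adjusted p = 0.0541, with fitted log2 fold changes of 11.17 without day 5 library 1 and 8.07 without day 5 library 2). DESeq2 did call it (adjusted p = 2.52e-06). Foxa2, a forkhead factor of organiser and endoderm, read 7.78 and 11.5 CPM at day 3 and 15.8 and 44.5 CPM at day 5 and was not called (adjusted p = 0.0511, with log2 fold changes of 2.20 without day 5 library 1 and 0.68 without day 5 library 2), though DESeq2 did so (adjusted p = 2.52e-05). Chrd, the BMP antagonist chordin, read 4.07 and 3.97 CPM at day 3 and 2.89 and 14.4 CPM at day 5 (adjusted p = 0.235, with log2 fold changes of 1.84 without day 5 library 1 and -0.50 without day 5 library 2). In Chrd only day 5 library 2 lay above day 3. Fst, which encodes the activin antagonist follistatin, fell with 168 and 189.5 CPM at day 3 and 7.86 and 9.6 CPM at day 5 (-4.36 ± 0.22, adjusted p = 2.50e-05). Fgf8, an FGF of the streak, fell with 36.6 and 40.6 CPM at day 3 and 10.3 and 17.7 CPM at day 5 (-1.46 ± 0.24, adjusted p = 0.00263). Wnt3, the Wnt ligand that starts the streak, rose slightly, with 24 and 26.1 CPM at day 3 and 39.5 and 30.4 CPM at day 5 (0.48 ± 0.12, adjusted p = 0.00876, but adjusted p = 0.0721 without day 3 library 1).

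Of 17 streak genes tested, 7 rose and 2 fell, with a median log2 fold change of 1.11. The counts were 10 and 2 without day 5 library 1 and 8 and 5 without library 2. The control course ran the other way, with a median of -5.18, and the difference between the courses was called for all 17 genes, each higher in KO. T fell in control from 797 and 849.9 CPM at day 3 to 6.94 and 12.3 CPM at day 5, and the log2 change in KO exceeded that in control by 5.42 ± 0.65 (adjusted p = 0.00638). For Mixl1 the control levels were 422 and 421 CPM at day 3 and 1.29 and 1.99 CPM at day 5, and the difference between the courses was 8.70 ± 0.21 (adjusted p = 1.16e-07). At day 3 both KO libraries lay below both control libraries for all 17 genes, as the plot of streak genes by library shows, and so they did for 37.8% of all genes tested.

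**Figure D3:**
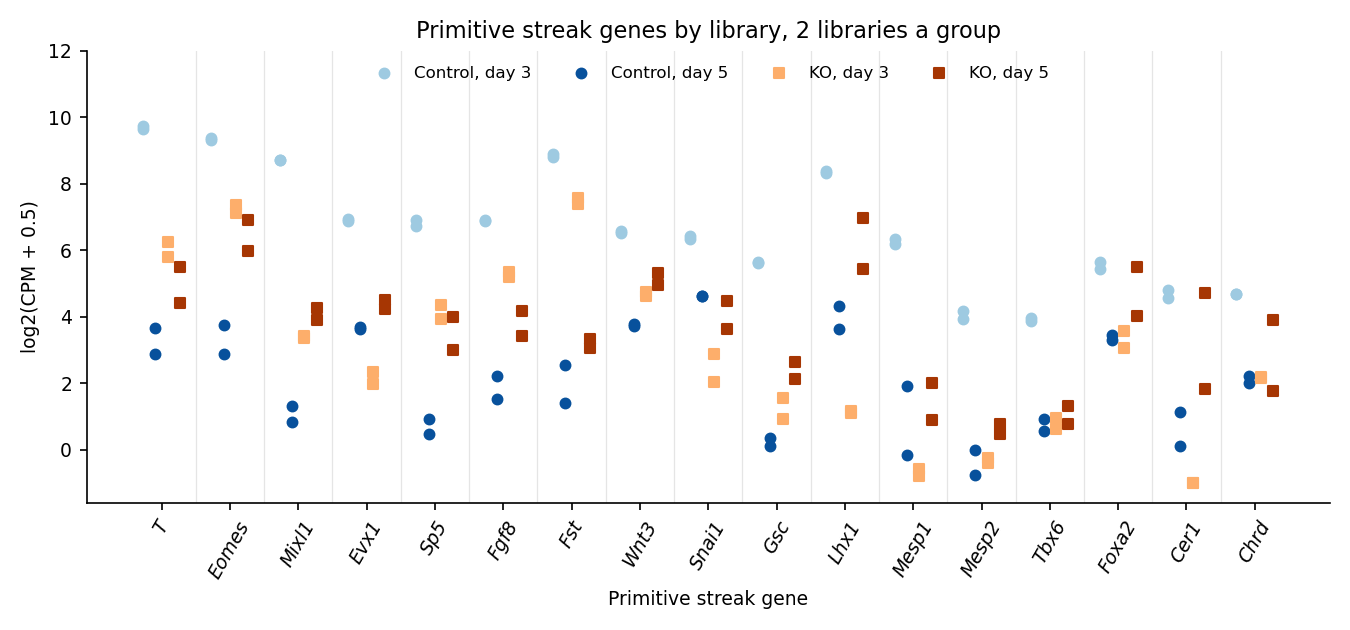
Levels of 17 primitive streak genes as log2(CPM + 0.5) in each of the 8 libraries, with control as circles and KO as squares, day 3 pale and day 5 dark. The control libraries of day 3 lie highest for 15 of 17 genes, the exceptions being Cer1 and Foxa2, and drop by day 5, whereas the KO pairs lie closer together or rise, as for Evx1, Lhx1 and Mixl1.

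The promoters of 2 streak genes are shown because both genes are known targets of Wnt signalling whose course differs from control, and both hold letters bound by its effectors TCF and LEF. The motif searched was CTTTGA, on both strands, so also as TCAAAG, in the 250 bases before the transcript start (RefSeq, GRCm38.p6), and capitals mark it. T is on the plus strand at chr17:8434173-8434422 and Sp5, a direct Wnt target, on the plus strand at chr2:70474673-70474922.
T: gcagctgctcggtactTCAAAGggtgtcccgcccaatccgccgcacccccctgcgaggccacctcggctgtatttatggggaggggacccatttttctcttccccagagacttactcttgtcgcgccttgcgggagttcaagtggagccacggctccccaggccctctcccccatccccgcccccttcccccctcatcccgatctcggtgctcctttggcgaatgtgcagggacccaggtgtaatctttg
Sp5: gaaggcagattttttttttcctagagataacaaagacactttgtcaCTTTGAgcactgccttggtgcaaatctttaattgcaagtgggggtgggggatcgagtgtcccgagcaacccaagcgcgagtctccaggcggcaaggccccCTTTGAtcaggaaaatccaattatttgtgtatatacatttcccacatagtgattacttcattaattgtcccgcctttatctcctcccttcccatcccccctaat
The window of T held 1 match and that of Sp5 held 2. Of the 17 streak genes 14 had a RefSeq promoter and 3 of those held the motif, Mesp1 among them, while 13.8% of 32851 promoters did. The match describes letters only. Sp5 read 14.9 and 19.9 CPM at day 3 and 7.5 and 15.4 CPM at day 5 and was not called (adjusted p = 0.179, and log2 fold change -1.245 without day 5 library 2).

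The Nodal pathway mostly fell. The ligand Nodal read 119 and 118 CPM at day 3 and 20.7 and 31.1 CPM at day 5 (-2.19 ± 0.15, adjusted p = 1.90e-05). Its feedback antagonist Lefty1 read 165 and 153 CPM at day 3 and 4.15 and 13.2 CPM at day 5 (-4.19 ± 0.42, adjusted p = 8.12e-04, but -3.59 without day 5 library 1 and -5.28 without day 5 library 2). Lefty2 read 85.5 and 80.3 CPM at day 3 and 13.7 and 19.3 CPM at day 5 (-2.33 ± 0.13, adjusted p = 1.34e-06). Both libraries of day 5 lay below day 3 in each of the 3 genes. The coreceptor gene Tdgf1 (Cripto) fell as well, with 274 and 289 CPM at day 3 and 44.1 and 83.5 CPM at day 5 (-2.14 ± 0.34, adjusted p = 0.00558). Cfc1 (Cryptic), the coreceptor of node and lateral mesoderm, rose with 0.442 and 0.0845 CPM at day 3 and 12.2 and 23.6 CPM at day 5 (6.05 ± 0.63, adjusted p = 3.20e-04, but 7.55 without day 3 library 1 and 5.30 without day 3 library 2). Of 14 genes tested 8 fell and 4 rose, and the difference from the control course was called for 7, all higher in KO.

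Most paraxial mesoderm genes stayed low, though not Cdx2. Msgn1, which drives presomitic fate, had no count at day 3 and 1.08 and 1.13 CPM at day 5, at least 8.56-fold higher. Tbx6, a T-box gene of the presomitic mesoderm, was at or under 2 CPM in all 4 libraries, with 1.06 and 1.44 CPM at day 3 and 1.99 and 1.22 CPM at day 5 (adjusted p = 0.436). Cdx2, a homeobox gene of posterior mesoderm and trophoblast, rose with 1.33 and 1.1 CPM at day 3 and 62.2 and 20.9 CPM at day 5 (5.09 ± 0.76, adjusted p = 0.00357, but 4.09 without day 5 library 1). Tcf15, a bHLH factor of somites and epiblast, fell with 4.33 and 5.24 CPM at day 3 and 0.993 and 0.873 CPM at day 5 (-2.35 ± 0.33, adjusted p = 3.28e-04). Only 14 of 21 listed genes passed the filter on low counts, of which 6 rose and 2 fell, with a median log2 fold change of 0.88. In control the median was -3.24, and the difference between the courses was called for 8 of the 14, each higher in KO.

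Germ cell genes moved in both directions, 5 up and 3 down of 10 tested. Prdm1 (Blimp1), which specifies germ cells and also marks endoderm, rose with 5.39 and 5.58 CPM at day 3 and 19.3 and 46.9 CPM at day 5 (2.59 ± 0.44, adjusted p = 0.00335, but 1.79 without day 5 library 2). Ifitm3, a surface marker of early germ cells, rose with 30.9 and 30.1 CPM at day 3 and 58.2 and 58.4 CPM at day 5 (0.93 ± 0.11, adjusted p = 8.84e-05). Ddx4 (Vasa), a helicase of later germ cells, fell with 16.6 and 14.4 CPM at day 3 and 2.35 and 4.01 CPM at day 5 (-2.28 ± 0.29, adjusted p = 1.63e-04). For 7 of the 10 the change was higher in KO than in control and for the other 3 the difference was not called.

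Most of the tested regulators of cardiac and lateral plate mesoderm rose. Gata6 read 0.531 and 0.422 CPM at day 3 and 51.3 and 54.6 CPM at day 5 (6.77 ± 0.15, adjusted p = 2.32e-08). Gata4 (chromosome 14, 63198922 to 63271692), like it a zinc finger factor of heart and endoderm, read 3.36 and 2.03 CPM at day 3 and 103 and 122 CPM at day 5 (5.39 ± 0.16, adjusted p = 7.82e-08). The 2 day 5 libraries were close to each other in both genes. Hand1, a bHLH factor of lateral and extraembryonic mesoderm, read 0.708 and 0.169 CPM at day 3 and 474 and 188 CPM at day 5 (9.54 ± 0.91, adjusted p = 0.00111, but 10.84 without day 3 library 1, 8.85 without day 3 library 2 and 8.72 without day 5 library 1), with library 1 well above library 2. Hand2, its relative of the heart and limb, had no count at day 3 and 17.3 and 19.6 CPM at day 5, at least 143-fold higher. Tbx20, a T-box gene of the heart, read 0.884 and 0.507 CPM at day 3 and 79.5 and 56.6 CPM at day 5 (6.60 ± 0.35, adjusted p = 1.73e-05).

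Several of these genes had 1 to 3 counts at day 3, so their change is given as a ratio with its 95% exact counting interval, which covers counting error only. Isl1, of second heart field progenitors, read 10.2 and 15 CPM at day 5, a ratio of 146 (40.1 to 1210). Foxf1, a forkhead gene of lateral mesoderm, read 53.3 and 30.4 CPM, a ratio of 482 (133 to 3990). Nkx2-5, a defining marker of heart progenitors, had no count at day 3 and only 0.452 and 0.873 CPM at day 5, at least 5.13-fold higher. Of 20 listed genes 18 were tested, of which 15 rose and 3 were not called, with a median log2 fold change of 4.11, or 2.81 with genes absent at day 3 set to their lower bounds. In the control course the median was 4.24. The change was higher in KO than in control for 6 genes, Gata4 and Gata6 among them. In control Gata4 read 48.8 and 45.2 CPM at day 3 and 109 and 109.5 CPM at day 5. Gata6 read 60.1 and 56.2 CPM at day 3 and 95.7 and 90 CPM at day 5 there. The change was lower for 5, among them Gata5, a relative of Gata4. Gata5 read 0.884 and 0.592 CPM at day 3 and 1.81 and 2.27 CPM at day 5 in KO (1.46 ± 0.42, adjusted p = 0.0161, but adjusted p = 0.111 without day 3 library 2). In control it read 0.088 and 0.44 CPM at day 3 and 27.1 and 21.6 CPM at day 5.

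Sarcomere genes rose in part, 10 of 16 tested of 22, while 2 fell and 4 were not called. The 2 that fell were Actc1 and Actn2. Actc1 read 5.84 and 5.24 CPM at day 3 and 3.43 and 2.01 CPM at day 5. Actn2 read 6.01 and 6.34 CPM at day 3 and 1.535 and 2.36 CPM at day 5. Tnnc1, which encodes the cardiac and slow skeletal troponin C, read 0.531 and 0.761 CPM at day 3 and 37.6 and 33.3 CPM at day 5 (5.75 ± 0.25, adjusted p = 3.72e-07). Tnnt2, cardiac troponin T, read 0.265 and 0.0845 CPM at day 3 and 7.22 and 5.32 CPM at day 5 (5.09 ± 0.40, adjusted p = 9.40e-06, but 6.03 without day 3 library 1 and 4.50 without day 3 library 2). The troponin I gene Tnni1 read 29.4 and 13 CPM at day 5, a ratio of 163 (55.3 to 791). All 3 were higher in both day 5 libraries. Myl2, Nppa, Nppb and Pln did not pass the filter on low counts and were at most 0.70 CPM in any KO library. The myosin genes Myh7 and Myl3 did rise. Myh7 read 18.6 and 17.7 CPM at day 5 after 2 counts at day 3, a ratio of 210 (57.8 to 1740). Myl3 read 1.68 and 1.35 CPM at day 3 and 14.2 and 20.9 CPM at day 5. Tpm1, an alpha tropomyosin gene of many cell types, was already high at day 3, with 294 and 298 CPM at day 3 and 1189 and 659.6 CPM at day 5 (1.64 ± 0.29, adjusted p = 0.00812). In smooth muscle, Acta2, the smooth muscle actin that early mesoderm and heart also express, read 2.03 and 2.37 CPM at day 3 and 258 and 42.7 CPM at day 5 (6.08 ± 1.33, adjusted p = 0.0189, but adjusted p = 0.0777 without day 3 library 1, adjusted p = 0.0776 without day 3 library 2, 4.27 without day 5 library 1 and 6.84 without day 5 library 2). The calponin gene Cnn1 fell with 38.2 and 36.1 CPM at day 3 and 9.39 and 8.38 CPM at day 5 (-2.06 ± 0.12, adjusted p = 1.66e-06). In Acta2, library 1 of day 5 was 6 times as high as library 2.

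**Figure D4:**
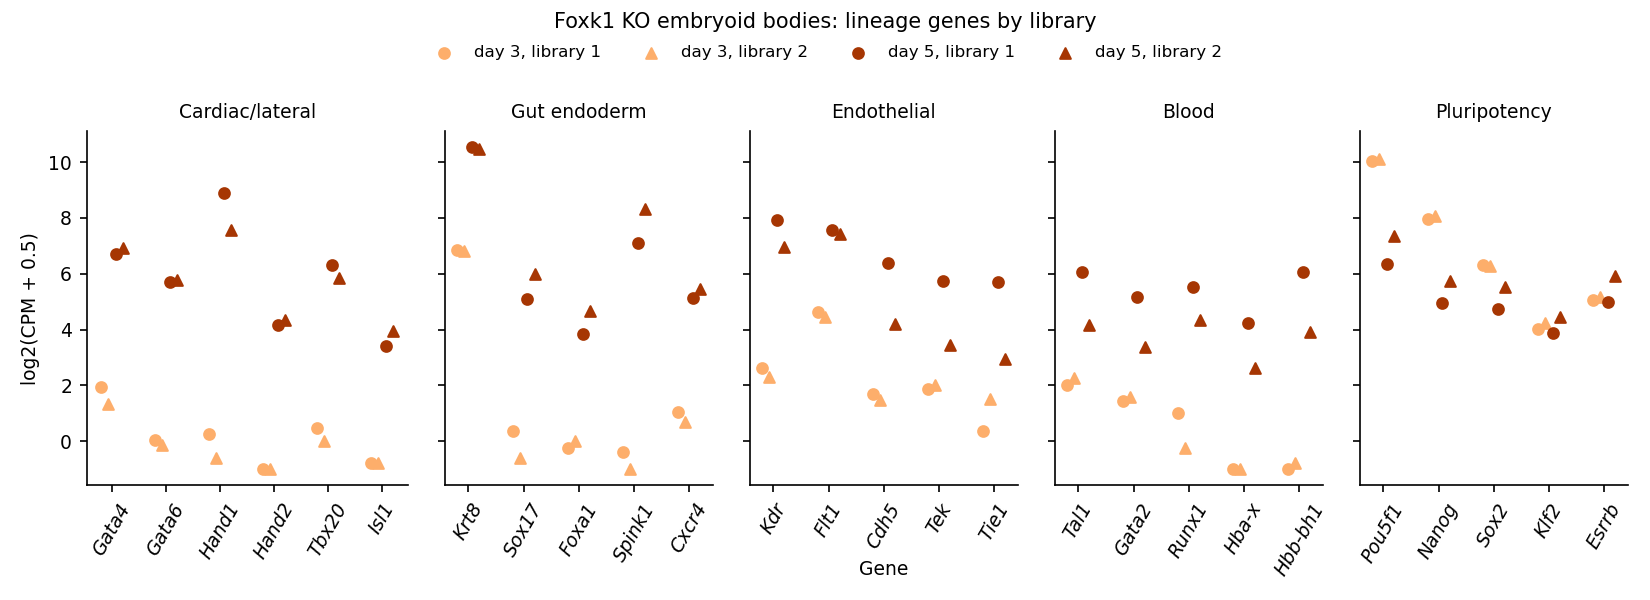
Levels of lineage genes as log2(CPM + 0.5) in the 4 KO libraries, with day 3 pale and day 5 dark, library 1 as circles and library 2 as triangles. The day 5 libraries lie close together for Gata4, Gata6 and Krt8, library 1 lies above library 2 for the endothelial genes Cdh5, Tek and Tie1 and for the blood genes, and library 2 lies above library 1 for the pluripotency genes.

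Of 19 endothelial genes tested of 21, 10 rose and 1 fell. Kdr (chromosome 5, 75932827 to 75978458), the VEGF receptor that marks mesodermal precursors of blood and vessel, read 5.66 and 4.48 CPM at day 3 and 240.2 and 124 CPM at day 5 (5.16 ± 0.46, adjusted p = 6.78e-04). Flt1, the decoy VEGF receptor, read 24.1 and 21.6 CPM at day 3 and 189.6 and 173 CPM at day 5 (2.98 ± 0.09, adjusted p = 5.01e-08), nearly equal in the 2 libraries of day 5. In control Flt1 read 31.1 and 30.6 CPM at day 3 and 23.4 and 26.7 CPM at day 5, and the change in KO exceeded that in control by 3.28 ± 0.13 (adjusted p = 1.20e-06). Cdh5, which encodes VE-cadherin of endothelial junctions, read 2.74 and 2.28 CPM at day 3 and 82.3 and 18 CPM at day 5 (4.31 ± 1.00, adjusted p = 0.0208, but adjusted p = 0.0682 without day 3 library 1, adjusted p = 0.0781 without day 3 library 2, 2.84 without day 5 library 1 and 5.00 without day 5 library 2). Tek, the angiopoietin receptor, read 3.18 and 3.55 CPM at day 3 and 52.7 and 10.5 CPM at day 5 (3.22 ± 0.93, adjusted p = 0.0407, but adjusted p = 0.118 without day 3 library 1, adjusted p = 0.116 without day 3 library 2, 1.63 without day 5 library 1 and 3.94 without day 5 library 2). Tie1, its partner, read 0.796 and 2.37 CPM at day 3 and 52.3 and 7.24 CPM at day 5 (4.21 ± 1.26, adjusted p = 0.0445, but adjusted p = 0.141 without day 3 library 1, 5.20 with adjusted p = 0.1 without day 3 library 2, 2.17 without day 5 library 1 and 5.00 without day 5 library 2). In these 3 genes library 1 was more than 4 times as high as library 2, which was itself above day 3.

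The calls of Tek and Tie1 also depended on the settings: with the 4 KO libraries fitted alone their adjusted p was 0.0646 and 0.0717, and with no filter on low counts it was 0.076 and 0.084. Etv2, the ETS factor that starts the endothelial and blood program, read 6.1 and 6.42 CPM at day 3 and 9.12 and 3.58 CPM at day 5 and was not called (adjusted p = 0.978). Its log2 fold change took opposite signs by the day 5 library kept, -0.81 without library 1 and 0.51 without library 2. Plvap, a diaphragm protein of mature endothelium, fell with 16.7 and 16.1 CPM at day 3 and 5.42 and 3.58 CPM at day 5 (-1.86 ± 0.35, adjusted p = 0.00232). The change was higher in KO than in control for 3 of 19 endothelial genes and lower for 2, Plvap and Cldn5. Over all genes tested 13.4% were higher and 10.8% lower. The list's median log2 fold change was 1.60 in KO and 1.77 in control. The list's counts were 11 up and 4 down without day 5 library 1 and 15 and 1 without library 2.

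Most blood regulators tested rose. Tal1, a bHLH factor required for all blood, read 3.54 and 4.31 CPM at day 3 and 66.5 and 17.4 CPM at day 5 (3.41 ± 0.81, adjusted p = 0.0221, but adjusted p = 0.0768 without day 3 library 1, adjusted p = 0.0724 without day 3 library 2, 2.14 without day 5 library 1 and 4.05 without day 5 library 2). Gata2, of blood progenitors, read 2.21 and 2.54 CPM at day 3 and 35.9 and 9.86 CPM at day 5 (3.26 ± 0.73, adjusted p = 0.0144, but adjusted p = 0.0716 without day 3 library 1, adjusted p = 0.0675 without day 3 library 2, 2.05 without day 5 library 1 and 3.88 without day 5 library 2). Runx1, of definitive blood, read 1.5 and 0.338 CPM at day 3 and 46.1 and 19.8 CPM at day 5 (5.16 ± 0.68, adjusted p = 0.00159, but 6.56 without day 3 library 1, 4.44 without day 3 library 2 and 4.43 without day 5 library 1). All 3 were higher in both day 5 libraries than at day 3. Gata1, the erythroid regulator, rose to a low level, with 0.354 and 0.507 CPM at day 3 and 4.51 and 3.75 CPM at day 5 (3.22 ± 0.34, adjusted p = 4.89e-05). The control line held 0.44 and 0.264 CPM at day 3 and 30.7 and 37.9 CPM at day 5, a difference of -3.34 ± 0.60 (adjusted p = 0.00373). Klf1, the activator of adult globin genes, read 0.177 and 0.422 CPM at day 3 and 1.26 and 0.174 CPM at day 5 and was not called (adjusted p = 0.322, with log2 fold changes of -0.76 without day 5 library 1 and 2.00 without day 5 library 2). Of 20 tested of 21, 13 rose and 1 fell. The change was higher in KO than in control for 2 of these genes and lower for 5. Of 12 macrophage genes only Mrc1 and Cd68 passed the filter. Mrc1, a scavenger receptor, read 2.21 and 2.45 CPM at day 3 and 8.22 and 2.09 CPM at day 5 (adjusted p = 0.116, with log2 fold changes of -0.16 without day 5 library 1 and 1.78 without day 5 library 2). Cd68, a lysosomal glycoprotein, read 6.63 and 8.2 CPM at day 3 and 6.5 and 7.42 CPM at day 5 (adjusted p = 0.728). Fcgr1, C1qa, C1qb and Adgre1 had no count in any KO library.

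The 3 embryonic globins were higher in both day 5 libraries than at day 3. Hba-x, the embryonic alpha globin zeta, had no count at day 3 and 18.6 and 5.67 CPM at day 5, at least 92.8-fold higher, though edgeR did not call it (adjusted p = 0.071, with fitted log2 fold changes of 8.975 without day 5 library 1 and 10.67 without day 5 library 2). DESeq2 (adjusted p = 2.22e-07) and the 4 KO libraries alone (0.0253) did. Hbb-y, the embryonic beta globin epsilon, read 0.177 and 0.169 CPM at day 3 and 15.1 and 3.75 CPM at day 5 (5.67 ± 1.04, adjusted p = 0.00698, but adjusted p = 0.0548 without day 3 library 1, adjusted p = 0.0575 without day 3 library 2, 4.35 without day 5 library 1 and 6.33 without day 5 library 2). Hbb-bh1, the earliest of the beta globins, read 66.9 and 14.5 CPM after 1 count at day 3, a ratio of 931 (167 to 36800). Library 1 held more than library 2 in each. In control at day 5 the levels were 404 and 393 CPM for Hba-x, 12.7 and 13.1 CPM for Hbb-y and 656 and 698 CPM for Hbb-bh1. The call of Hbb-bh1 (adjusted p = 0.0392, but adjusted p = 0.128 without day 3 library 1 and adjusted p = 0.128 without day 3 library 2) was lost without the filter on low counts (0.0665). Of 6 genes tested 4 rose and 2 were not called. The difference between the courses was not called for any of the 6, with -6.33 ± 17.72 for Hbb-bh1. With few or no counts at day 3 in both lines, that test could not decide whether the courses differed. The adult genes Hba-a1 and Hba-a2, and Hbb-bs and Hbb-bt, are near-identical copies between which estimated counts can be split, and their values are uncertain.

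The promoters of the embryonic globins Hba-x and Hbb-y are shown because both hold the CACCC box, the letters known to bind Klf factors in globin promoters. The motif CACCC was searched on both strands in the 250 bases before the start (RefSeq, GRCm38.p6) and is in capitals. Hba-x lies on the plus strand at chr11:32276350-32276599 and Hbb-y on the minus strand at chr7:103853208-103853457, printed in the direction of transcription.
Hba-x: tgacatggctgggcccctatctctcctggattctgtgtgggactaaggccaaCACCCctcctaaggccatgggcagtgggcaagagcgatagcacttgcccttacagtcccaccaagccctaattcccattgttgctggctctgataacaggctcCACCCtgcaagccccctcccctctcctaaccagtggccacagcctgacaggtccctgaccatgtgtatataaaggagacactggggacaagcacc
Hbb-y: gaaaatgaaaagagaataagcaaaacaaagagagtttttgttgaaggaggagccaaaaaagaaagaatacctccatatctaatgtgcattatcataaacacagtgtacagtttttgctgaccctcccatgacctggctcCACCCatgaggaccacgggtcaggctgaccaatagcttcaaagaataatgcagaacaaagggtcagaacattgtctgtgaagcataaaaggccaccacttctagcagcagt
Hba-x held 2 matches and Hbb-y held 1. Of 7 globin promoters matched 6 held the motif, and 52.0% of all promoters did.

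Most gut endoderm genes rose, with the higher level in library 2 for most. Sox17, a defining factor of endoderm, read 0.796 and 0.169 CPM at day 3 and 33.3 and 62.6 CPM at day 5 (6.62 ± 0.53, adjusted p = 1.04e-04, but 8.06 without day 3 library 1 and 5.89 without day 3 library 2). Foxa1, a pioneer factor of endoderm, read 0.354 and 0.507 CPM at day 3 and 14 and 25.2 CPM at day 5 (5.47 ± 0.40, adjusted p = 6.38e-06). Cxcr4, a chemokine receptor of definitive endoderm, read 1.59 and 1.1 CPM at day 3 and 34.8 and 43.6 CPM at day 5 (4.86 ± 0.23, adjusted p = 4.74e-07). In each the day 5 libraries were separated from day 3 by more than 10-fold. Krt8 and Krt18, the keratins of simple epithelia, and Krt19 rose with almost equal day 5 libraries. Krt8 read 114 and 111 CPM at day 3 and 1485 and 1404 CPM at day 5 (3.68 ± 0.06, adjusted p = 3.20e-09). Krt19 read 19.9 and 17.9 CPM at day 3 and 133 and 133 CPM at day 5 (2.81 ± 0.08, adjusted p = 4.05e-08). Spink1, a trypsin inhibitor of gut epithelium, read 136 and 316 CPM after 3 counts at day 3, a ratio of 1760 (601 to 8530).

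Of 17 gut endoderm genes 13 rose and 1 fell, with a median log2 fold change of 3.45 against 2.23 in control. The change was higher in KO for 7 genes and the difference was not called for 10. Sox17 is an example, with 8.8 and 9.86 CPM at day 3 and 14.8 and 14.3 CPM at day 5 in control and a difference of 5.98 ± 0.70 (adjusted p = 0.00172). The gene that fell was Epcam, an epithelial adhesion molecule that stem cells also express, with 241 and 245 CPM at day 3 and 74.8 and 125 CPM at day 5 (-1.28 ± 0.23, adjusted p = 0.00585). Visceral endoderm genes differed widely in level. Summed over the list they read 832 and 826 CPM at day 3 and 652 and 818 CPM at day 5 in KO. The genes named here hold only part of that. Ttr, a secreted carrier of yolk sac endoderm and liver, read 8.04 and 7.5 CPM after 1 count at day 3, a ratio of 180 (31.8 to 7140), and Apob, an apolipoprotein, read 1.15 and 2.2 CPM at day 3 and 4.24 and 3.05 CPM at day 5. In control Apob read 1.32 and 0.44 CPM at day 3 and 54 and 40.4 CPM at day 5. Apob was not called by edgeR (adjusted p = 0.0569, and log2 fold change 1.30 without day 5 library 2) and was by DESeq2 (0.0227). Alb and Serpina1a had no count in any KO library. Lrp2, the endocytic receptor megalin, fell in KO with 266 and 264 CPM at day 3 and 38.6 and 31.8 CPM at day 5 (-2.92 ± 0.11, adjusted p = 4.33e-07). In control it rose, with 30.3 and 27.2 CPM at day 3 and 91.4 and 76 CPM at day 5, a difference of -4.46 ± 0.16 (adjusted p = 1.29e-06). Of 14 tested of 20, 5 rose and 1 fell, where over all genes tested 28.3% rose and 25.5% fell. The change was lower in KO for 5, and the difference was not called for 9.

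Most matrix genes of mesenchyme rose. Fn1, which encodes fibronectin, read 428 and 416 CPM at day 3 and 3374 and 2233 CPM at day 5 (2.73 ± 0.21, adjusted p = 4.09e-04). Pdgfra, a receptor of early mesoderm and mesenchyme, read 0.884 and 1.94 CPM at day 3 and 45.8 and 29.1 CPM at day 5 (4.70 ± 0.39, adjusted p = 2.18e-04, but 5.38 without day 3 library 2). Col1a2, a fibrillar collagen chain, reached 30.2 and 33.2 CPM in KO and 391 and 303 CPM in control, and its change was lower in KO by a difference of -3.01 ± 0.28 (adjusted p = 3.13e-04). Its partner Col1a1 read 4.42 and 5.41 CPM at day 3 and 288 and 58.2 CPM at day 5 (5.13 ± 1.07, adjusted p = 0.0163, but adjusted p = 0.0709 without day 3 library 1, adjusted p = 0.0685 without day 3 library 2, 3.56 without day 5 library 1 and 5.84 without day 5 library 2), with library 1 far above library 2. Thy1, a surface marker of fibroblasts and other cells, fell with 15.3 and 19.4 CPM at day 3 and 2.35 and 3.14 CPM at day 5 (-2.65 ± 0.23, adjusted p = 1.73e-05). Of 20 tested of 21, 16 rose and 1 fell, with a median log2 fold change of 2.89, or 2.64 with bounds.

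In the basement membrane list 7 of 10 rose and 1 fell. The collagen IV chains Col4a1 and Col4a2 rose alike. Col4a1 read 119.7 and 117 CPM at day 3 and 1099 and 670.4 CPM at day 5 (2.90 ± 0.25, adjusted p = 5.58e-04). Col4a2 read 44.5 and 42.1 CPM at day 3 and 566 and 303 CPM at day 5 (3.33 ± 0.35, adjusted p = 0.00133). Lama5, the laminin chain of epithelia and stem cells, was the gene that fell, with 537 and 588 CPM at day 3 and 286 and 329 CPM at day 5 (-0.87 ± 0.08, adjusted p = 3.12e-05). Genes of the epithelial to mesenchymal transition rose in part. Cdh2, N-cadherin, read 29.7 and 27.2 CPM at day 3 and 208 and 242 CPM at day 5 (2.98 ± 0.08, adjusted p = 3.97e-08). Its change exceeded that in control by 3.55 ± 0.11 (adjusted p = 2.81e-07). Zeb1, a repressor of epithelial genes, read 5.48 and 5.24 CPM at day 3 and 53.9 and 29.1 CPM at day 5 (2.95 ± 0.33, adjusted p = 4.98e-04). Cdh1, E-cadherin, read 694 and 678 CPM at day 3 and 414 and 576 CPM at day 5 (adjusted p = 0.0528, with log2 fold changes of -0.25 without day 5 library 1 and -0.76 without day 5 library 2). In control it read 385 and 379.7 CPM at day 3 and 78.4 and 92.4 CPM at day 5. With DESeq2 the adjusted p of Cdh1 was 6.66e-04, and with DESeq2 size factors in edgeR it was 0.0477. Of 18 genes tested 11 rose and 3 fell, and without day 5 library 2 the counts were 11 and 6. In the epicardial list 3 of 7 rose and 1 fell; Tcf21, an epicardial bHLH factor, had no count at day 3 and 2.08 and 1.66 CPM at day 5, at least 14.4-fold higher, and Upk3b, a mesothelial marker, had no count in the KO line on either day and 6.74 and 5.76 CPM in control at day 5.

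Of 39 Hox genes listed 22 passed the filter, and 7 of these had no count at day 3 in KO and so could pass only through a group with a higher level. Of the 22, 18 rose and 4 were not called, which is given as a description and not as support for a rise of Hox genes as a group. Hoxb3, of the anterior trunk, read 0.619 and 0.422 CPM at day 3 and 14.9 and 10.9 CPM at day 5 (4.61 ± 0.30, adjusted p = 3.02e-06). Hoxb2 read 0.884 and 0.592 CPM at day 3 and 18.1 and 7.24 CPM at day 5 (4.08 ± 0.58, adjusted p = 0.00132, but 3.28 without day 5 library 1). Among posterior genes, Hoxa9 had no count at day 3 and 3.34 and 2.01 CPM at day 5, at least 20.5-fold higher, and Hoxc8 likewise reached 6.41 and 1.57 CPM, at least 30.5-fold higher. In all 4 genes library 1 was the higher of the day 5 pair. Hoxb1, the earliest Hox gene of the streak, read 1.15 and 1.69 CPM at day 3 and 0.993 and 1.66 CPM at day 5 and was not called (adjusted p = 0.872).

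Neural genes fell for the most part. Olig1 (chromosome 16, 91269772 to 91271933) and Olig2, bHLH factors of oligodendrocyte and motor neuron progenitors, fell together. Olig1 read 61.6 and 60.1 CPM at day 3 and 2.89 and 4.97 CPM at day 5 (-3.94 ± 0.22, adjusted p = 4.12e-06). Olig2 read 36.8 and 38.7 CPM at day 3 and 3.25 and 4.8 CPM at day 5 (-3.22 ± 0.23, adjusted p = 1.04e-05). In control their counts were at or near 0 on both days, with 0 and 0 CPM at day 3 and 0.0991 and 0 CPM at day 5 for Olig1. Elavl3, an RNA-binding protein of neurons, read 14.9 and 14.3 CPM at day 3 and 0.0903 and 0.611 CPM at day 5 (-5.32 ± 0.46, adjusted p = 1.73e-05, but -4.55 without day 5 library 1 and -7.19 without day 5 library 2). Nes, the intermediate filament nestin of progenitors, read 258 and 261 CPM at day 3 and 75.1 and 58.9 CPM at day 5 (-1.95 ± 0.13, adjusted p = 2.90e-05). Of 14 tested of 21, 9 fell and 2 rose, one of the latter being Ncam1, an adhesion molecule that mesoderm also expresses, with 7.08 and 8.37 CPM at day 3 and 28.7 and 32.4 CPM at day 5 (1.98 ± 0.14, adjusted p = 5.58e-06). The neurogenic factors Neurog1 and Neurog2 were at or near 0 in every KO library. In the neural crest list 6 of 10 rose, among them Sox9, of crest, cartilage and endoderm, with 1.24 and 1.01 CPM at day 3 and 9.3 and 13.9 CPM at day 5 (3.35 ± 0.31, adjusted p = 2.53e-05), and 2 fell, Foxd3 and Sox10. The call of Sox10 (adjusted p = 0.0141, but adjusted p = 0.0914 without day 3 library 2) was also lost with DESeq2 (0.0697). In the trophoblast list 5 of 7 rose, with Gata3 at 0.619 and 0.93 CPM at day 3 and 17.9 and 21 CPM at day 5 (4.63 ± 0.24, adjusted p = 9.46e-07). Tpbpa and Prl3d1, markers of differentiated trophoblast, had no count.

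Most Wnt ligands rose. Wnt8a, a ligand of epiblast and streak, fell with 65.3 and 68.3 CPM at day 3 and 0.452 and 0.611 CPM at day 5 (-6.94 ± 0.16, adjusted p = 2.32e-08). Wnt5a, a mostly non-canonical ligand of mesenchyme, rose with 0.354 and 0.93 CPM at day 3 and 138 and 52.1 CPM at day 5 (7.17 ± 0.88, adjusted p = 0.00236, but 8.02 without day 3 library 2 and 6.30 without day 5 library 1). Wnt2b and Wnt6 rose too. Wnt2b read 0.973 and 0.93 CPM at day 3 and 4.51 and 5.76 CPM at day 5 (2.42 ± 0.31, adjusted p = 1.72e-04). Wnt6 read 0.884 and 0.507 CPM at day 3 and 6.77 and 3.75 CPM at day 5 (2.90 ± 0.53, adjusted p = 0.00144). In each the day 5 pair was separated from the day 3 pair. Of 14 tested of 19, 10 rose and 1 fell, with a median log2 fold change of 1.15 against -1.0 in control, and the change was higher in KO for 9, the difference not being called for 5. Wnt3a, a canonical ligand of the streak, read 0.354 and 0.338 CPM at day 3 and 0 and 0.174 CPM at day 5 in KO (adjusted p = 0.14, and fitted log2 fold change -4.99 without day 5 library 2), against 10.7 and 8.54 CPM in control at day 3.

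Secreted Wnt inhibitors rose as well, 8 of 14 tested, and 2 fell. Dkk1, which blocks the Lrp coreceptors, read 0.354 and 0.422 CPM at day 3 and 23.2 and 48.3 CPM at day 5 (6.48 ± 0.56, adjusted p = 1.55e-04, but 5.83 without day 5 library 2). Notum, which removes the lipid of Wnt ligands, read 2.3 and 3.21 CPM at day 3 and 11.1 and 7.85 CPM at day 5 (1.77 ± 0.30, adjusted p = 9.89e-04). Sfrp2, which binds Wnt ligands and is high in stem cells, fell with 28.6 and 27.9 CPM at day 3 and 5.96 and 8.03 CPM at day 5 (-2.01 ± 0.15, adjusted p = 6.92e-06). The Wnt target list split, with 7 up and 6 down of 17. Axin2, a direct target and feedback inhibitor, read 57.4 and 61.5 CPM at day 3 and 96.3 and 63.8 CPM at day 5 and was not called (adjusted p = 0.0915, but 0.0366 with DESeq2, and log2 fold change 0.67 without day 5 library 2). In control it read 172 and 186 CPM at day 3 and 50.9 and 51.1 CPM at day 5, a difference of 2.24 ± 0.26 (adjusted p = 0.00176). Lgr5 and Rspo3, a receptor and a ligand that amplify the signal, rose. Lgr5 read 1.68 and 1.1 CPM at day 3 and 19.6 and 20.2 CPM at day 5 (3.83 ± 0.30, adjusted p = 1.03e-05). Rspo3 read 2.83 and 4.14 CPM at day 3 and 33.7 and 34.7 CPM at day 5 (3.29 ± 0.18, adjusted p = 1.05e-06). Sp8, a zinc finger gene related to Sp5, fell with 11.8 and 15.6 CPM at day 3 and 2.62 and 3.14 CPM at day 5 (-2.25 ± 0.19, adjusted p = 1.60e-05). Among 15 Frizzled receptors and coreceptors 3 rose and 2 fell, where over all genes tested 28.3% rose and 25.5% fell. Their median log2 fold change was 0.02, or 0.19 without day 5 library 1 and -0.08 without library 2.

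BMP genes rose, 15 of 20 tested, with 1 fall. The ligand Bmp4 read 2.03 and 2.62 CPM at day 3 and 166 and 104 CPM at day 5 (5.84 ± 0.34, adjusted p = 6.55e-05). Bmp2 read 0.442 and 1.18 CPM at day 3 and 96.6 and 62.9 CPM at day 5 (6.58 ± 0.36, adjusted p = 1.33e-05, but 7.46 without day 3 library 2). Bmp5, another ligand, read 51.2 and 59.6 CPM after 1 count at day 3, a ratio of 1280 (230 to 50700). The BMP-responsive genes Msx1, Msx2 and Id1 rose with them. Msx1, a homeobox gene, read 3.71 and 4.65 CPM at day 3 and 80.5 and 68.7 CPM at day 5 (4.15 ± 0.13, adjusted p = 5.01e-08). Id1, an inhibitor of bHLH factors, read 27 and 24.5 CPM at day 3 and 98.4 and 96.8 CPM at day 5 (1.92 ± 0.08, adjusted p = 2.37e-07). The gene that fell was Fst, given above. The change was higher in KO than in control for 10 and lower for 3, the latter including Smad9, a BMP-activated Smad. Smad9 read 0.708 and 0.254 CPM at day 3 and 2.26 and 2.53 CPM at day 5 in KO (2.30 ± 0.40, adjusted p = 0.00105, but 3.18 without day 3 library 1). The control line held 0.352 and 0.44 CPM at day 3 and 26.5 and 23.1 CPM at day 5.

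FGF genes moved both ways. Dusp6, a phosphatase that feeds back on ERK, fell with 132 and 135 CPM at day 3 and 52.6 and 61.8 CPM at day 5 (-1.22 ± 0.07, adjusted p = 2.21e-06). Etv5, an ETS factor induced by FGF signals, fell with 226 and 234 CPM at day 3 and 94.2 and 128 CPM at day 5 (-1.05 ± 0.13, adjusted p = 5.50e-04). The ligands Fgf3 and Fgf10 rose in both day 5 libraries. Fgf3 read 1.15 and 1.1 CPM at day 3 and 107 and 61.4 CPM at day 5 (6.22 ± 0.43, adjusted p = 8.26e-05). Fgf10 read 1.95 and 2.37 CPM at day 3 and 51.6 and 90 CPM at day 5 (5.03 ± 0.39, adjusted p = 1.28e-04). Fgf17, another ligand, fell with 12.7 and 13.7 CPM at day 3 and 0.813 and 1.4 CPM at day 5 (-3.56 ± 0.25, adjusted p = 4.77e-06). Of 19 tested 9 rose and 8 fell. In the Notch list 7 of 14 rose and 1 fell, the ligand Jag2. Hey2, a Notch target of heart and vessel, read 0.442 and 0.254 CPM at day 3 and 16.9 and 10.6 CPM at day 5 (5.26 ± 0.39, adjusted p = 6.61e-06). Jag2 read 77.6 and 74.5 CPM at day 3 and 24.9 and 27.8 CPM at day 5 (-1.53 ± 0.11, adjusted p = 4.69e-06). The difference from control was called for 9 genes, each higher in KO.

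Of 15 retinoic acid genes tested of 16, 9 rose and 3 fell. Cyp26a1, the enzyme that clears retinoic acid and a streak and endoderm gene, read 1.24 and 1.61 CPM at day 3 and 41.1 and 141 CPM at day 5 (5.99 ± 0.97, adjusted p = 0.00663, but 6.62 without day 5 library 1 and 4.81 without day 5 library 2). The control libraries held 121 and 131 CPM at day 3 and 9.51 and 14 CPM at day 5. It thus rose in KO and fell in control, a difference of 9.41 ± 1.20 (adjusted p = 0.00764), and KO library 2 of day 5 was the higher of its pair. The synthesis genes Aldh1a3 and Aldh1a2 rose from near 0. Aldh1a3 read 0.177 and 0.254 CPM at day 3 and 5.78 and 4.97 CPM at day 5 (4.57 ± 0.46, adjusted p = 3.94e-05). Aldh1a2 read 0.708 and 1.18 CPM at day 3 and 3.43 and 4.45 CPM at day 5 (2.04 ± 0.52, adjusted p = 0.00847, but adjusted p = 0.0793 without day 3 library 1). Rarb, a receptor that retinoic acid itself induces, rose with 0.265 and 0.0845 CPM at day 3 and 2.53 and 4.71 CPM at day 5 (4.30 ± 0.70, adjusted p = 7.23e-04, but 5.25 without day 3 library 1 and 3.72 without day 3 library 2). Dhrs3, which lowers retinaldehyde, fell with 8.22 and 7.69 CPM at day 3 and 3.34 and 2.18 CPM at day 5 (-1.52 ± 0.33, adjusted p = 0.00371).

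The promoter of Cyp26a1 is shown because it is known for paired response elements of the retinoic acid receptors. The element's core AGTTCA was searched on both strands in the 250 bases before the start and is in capitals. The region is chr19:37697558-37697807 on the plus strand (RefSeq, GRCm38.p6).
Cyp26a1: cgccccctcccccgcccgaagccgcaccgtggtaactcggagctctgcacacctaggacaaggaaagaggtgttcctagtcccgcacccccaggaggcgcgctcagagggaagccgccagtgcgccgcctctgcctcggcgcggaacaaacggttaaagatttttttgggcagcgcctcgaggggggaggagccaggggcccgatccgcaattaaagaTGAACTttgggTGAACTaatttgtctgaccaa
It held 2 matches, the other listed gene with a match being Rarb, out of 12 matched promoters of the list, and 11.8% of all promoters held the motif.

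Of 26 genes of DNA replication and division 16 fell and 5 rose. The helicase subunit Mcm2 read 499 and 504 CPM at day 3 and 306 and 300.3 CPM at day 5 (-0.72 ± 0.04, adjusted p = 2.42e-06). Ccne1, cyclin E1, which starts S phase, read 184 and 182 CPM at day 3 and 53.6 and 66.4 CPM at day 5 (-1.61 ± 0.09, adjusted p = 1.29e-06). The inhibitor Cdkn1c rose, with 22.3 and 22.1 CPM at day 3 and 132 and 88.6 CPM at day 5 (2.31 ± 0.23, adjusted p = 6.05e-04). The rise was less than in control, a difference of -2.15 ± 0.32 (adjusted p = 0.00747). The list's median log2 fold change was -0.30 against -0.36 in control.

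Of 16 tested p53 targets 10 rose and 3 fell. Cdkn1a (p21), an inhibitor of cyclin-dependent kinases, read 79.2 and 76.7 CPM at day 3 and 205 and 180.4 CPM at day 5 (1.31 ± 0.10, adjusted p = 1.29e-05). The control libraries held 55.9 and 59 CPM at day 3 and 48.8 and 60.9 CPM at day 5, a difference of 1.37 ± 0.15 (adjusted p = 2.99e-04). Mdm2, the feedback inhibitor of p53, read 103 and 96.9 CPM at day 3 and 198 and 166 CPM at day 5 (0.86 ± 0.08, adjusted p = 2.73e-05). Pmaip1 (Noxa), a pro-apoptotic target, fell with 302 and 298 CPM at day 3 and 194 and 201 CPM at day 5 (-0.60 ± 0.07, adjusted p = 7.88e-05). It remained above control, which read 35 and 34.2 CPM at day 3 and 4.66 and 6.36 CPM at day 5.

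Stress response genes parted from the control course. Of 17 genes 15 were called for the difference, each lower in KO. Chac1, a glutathione-degrading enzyme induced by Atf4, read 11.2 and 9.21 CPM at day 3 and 1.72 and 1.13 CPM at day 5 (-2.84 ± 0.28, adjusted p = 3.45e-05). The control libraries held 5.63 and 3.96 CPM at day 3 and 29.6 and 36.1 CPM at day 5, a difference of -5.61 ± 0.35 (adjusted p = 1.15e-05). It fell in one line and rose in the other. Atf4 itself, the transcription factor of the integrated stress response, read 238 and 239 CPM at day 3 and 172 and 165 CPM at day 5 (-0.50 ± 0.05, adjusted p = 4.28e-05). In control Atf4 read 181 and 169 CPM at day 3 and 303 and 301 CPM at day 5, a difference of -1.29 ± 0.07 (adjusted p = 5.48e-06). Trib3, a pseudokinase and Atf4 target, read 25.2 and 23.9 CPM at day 3 and 11.2 and 11.3 CPM at day 5 (-1.12 ± 0.15, adjusted p = 2.09e-04). In control Trib3 read 10.8 and 7.57 CPM at day 3 and 45.1 and 46.6 CPM at day 5. These 3 genes were lower at day 5 in KO and higher at day 5 in control, and the KO libraries of day 3 lay above the control libraries of that day. Within the KO course 2 rose and 6 fell; the counts were 3 and 10 without day 5 library 1 and 5 and 6 without library 2.

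Metabolic genes changed in both directions. Of 21 glycolysis genes 5 rose and 10 fell, where over all genes tested 28.3% rose and 25.5% fell. The lactate exporter gene Slc16a3 fell with 251 and 271 CPM at day 3 and 63.1 and 71.8 CPM at day 5 (-1.95 ± 0.12, adjusted p = 1.26e-05). The glucose transporter genes Slc2a3 and Slc2a1 rose. Slc2a3 read 999 and 910.0 CPM at day 3 and 2096 and 2522 CPM at day 5 (1.27 ± 0.09, adjusted p = 4.72e-05). Slc2a1 read 333 and 313 CPM at day 3 and 1226 and 864 CPM at day 5 (1.69 ± 0.18, adjusted p = 9.46e-04). Eno1 fell too, but it has near-identical copies and its level is uncertain. Of 15 hypoxia genes 6 rose and 9 were not called, with Vegfa, the ligand of Kdr and Flt1, at 24.6 and 21.6 CPM at day 3 and 71.8 and 73.4 CPM at day 5 (1.65 ± 0.08, adjusted p = 8.42e-07). Of 18 autophagy and lysosome genes 11 rose and 1 fell, the latter being Tfe3, a transcription factor of lysosome genes. The protease gene Ctsd read 375 and 378 CPM at day 3 and 710.0 and 648 CPM at day 5 (0.85 ± 0.06, adjusted p = 3.16e-06). Tfe3 read 153 and 149 CPM at day 3 and 89.8 and 94.8 CPM at day 5 (-0.71 ± 0.06, adjusted p = 2.26e-05).

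Imprinted growth genes rose, 13 of 17, and 1 fell. Igf2, the fetal growth factor, read 57 and 53.2 CPM at day 3 and 5625 and 2678 CPM at day 5 (6.23 ± 0.47, adjusted p = 5.77e-04, but 5.60 without day 5 library 1). It had the largest gain in CPM of all genes ranked and reached 8183 and 7437 CPM in control. Peg10, a retrotransposon-derived gene of the placenta, read 229 and 233 CPM at day 3 and 2933 and 2325 CPM at day 5 (3.51 ± 0.11, adjusted p = 2.43e-06). Igf2r, the receptor that clears Igf2, read 181 and 182 CPM at day 3 and 967 and 446 CPM at day 5 (1.96 ± 0.39, adjusted p = 0.0124, but 1.29 without day 5 library 1). In control Igf2r read 156 and 155 CPM at day 3 and 73.3 and 71.7 CPM at day 5. Snrpn, a splicing protein gene, was the one that fell, with 327 and 341 CPM at day 3 and 100.1 and 98.7 CPM at day 5 (-1.75 ± 0.05, adjusted p = 3.97e-08). Of these 4 genes only Snrpn was lower at day 5. Of 11 genes of the insulin-like growth factor list 7 rose and 3 fell, with Igfbp5, a binding protein of mesenchyme, at 3.45 and 2.87 CPM at day 3 and 166 and 83.2 CPM at day 5 (5.30 ± 0.53, adjusted p = 0.00115). Among BAF chromatin remodeller subunits 6 of 16 rose and 5 fell, where over all genes tested 28.3% rose and 25.5% fell. The list's median log2 fold change was 0.07. Smarcd3 (Baf60c), the subunit of heart and muscle, read 4.07 and 3.8 CPM at day 3 and 14.8 and 17.2 CPM at day 5 (2.02 ± 0.14, adjusted p = 5.04e-06). Its rise was below that in control, a difference of -2.63 ± 0.21 (adjusted p = 4.36e-05). Dpf3, its partner there, read 7.4 and 6.46 CPM after 3 counts at day 3, a ratio of 53.4 (17.9 to 262).

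Ranked by fold among called genes of at least 5 CPM with separate groups, the rises not yet named began with Tdo2, which encodes tryptophan dioxygenase, with no count at day 3 and 46.6 and 21.1 CPM at day 5, at least 259-fold higher. The call of Tdo2 (adjusted p = 0.0128) was lost with no filter on low counts (0.0513). Tnnt3, fast skeletal troponin T, reached 17.2 and 11.2 CPM, at least 109-fold higher, and Plac1, a placental gene, 14.9 and 6.63 CPM, at least 82.5-fold higher. Samd3 reached 2.44 and 22 CPM, at least 95.5-fold higher (adjusted p = 0.0339, but adjusted p = 0.0715 without day 3 library 1 and adjusted p = 0.0737 without day 3 library 2), and its call was also lost with no filter (0.0994) and with the 4 KO libraries alone (0.0924). Slfn2 reached 7.22 and 3.75 CPM, at least 42.1-fold higher (adjusted p = 3.87e-04). These 5 genes had no count in either day 3 library. Rgs5, a regulator of G protein signalling in pericytes, read 0 and 0.338 CPM at day 3 and 129.8 and 67.2 CPM at day 5 (9.06 ± 0.74, adjusted p = 3.66e-04, but 8.14 without day 3 library 1 and 13.07 without day 3 library 2).

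By fall, the ranking held several genes known from neurons or ectoderm, which is a description of their known roles and not a tested theme. Pim2, a kinase of growth and survival, read 785 and 790.0 CPM at day 3 and 17.2 and 24.9 CPM at day 5 (-5.22 ± 0.14, adjusted p = 8.42e-07). Fam131b read 34 and 36.4 CPM at day 3 and 0.903 and 1.22 CPM at day 5 (-5.03 ± 0.24, adjusted p = 5.80e-07). Sncb, which encodes beta-synuclein, fell from 5.75 and 5.49 CPM to no count, at least 42.2-fold lower. Glyatl3 fell from 5.31 and 8.11 CPM to 1 count over the day 5 pair, a ratio of 152 (26.9 to 6040) in the lower direction. Sncb and Glyatl3 thus were near 0 in both day 5 libraries. Ncan, a brain proteoglycan, read 10.3 and 11.1 CPM at day 3 and 0.0903 and 0.523 CPM at day 5 (-5.05 ± 0.46, adjusted p = 2.14e-05, but -4.32 without day 5 library 1 and -6.74 without day 5 library 2). Foxi3, a forkhead gene of ectoderm, read 19.8 and 17.8 CPM at day 3 and 0.361 and 0.96 CPM at day 5 (-4.80 ± 0.32, adjusted p = 3.67e-06, but -5.68 without day 5 library 2). Ncan and Foxi3 were under 1 CPM in both day 5 libraries. Epha8, an ephrin receptor, read 12.2 and 12.3 CPM at day 3 and 0.632 and 0.174 CPM at day 5 (-4.90 ± 0.54, adjusted p = 8.61e-05, but -6.05 without day 5 library 1 and -4.28 without day 5 library 2). Slc27a2, a fatty acid transporter, read 36 and 33.7 CPM at day 3 and 0.542 and 2.36 CPM at day 5 (-4.57 ± 0.36, adjusted p = 2.64e-05, but -3.88 without day 5 library 1 and -6.00 without day 5 library 2). Vat1l read 14.8 and 15.7 CPM at day 3 and 0.0903 and 0.785 CPM at day 5 (-5.07 ± 0.47, adjusted p = 2.45e-05, but -4.26 without day 5 library 1 and -7.26 without day 5 library 2).

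By CPM, the 8 largest gains were Igf2, Peg10, Fn1, Amot, Slc2a3, Krt8, Peg3 and Podxl. Amot, a regulator of Hippo signalling, read 69.3 and 70.2 CPM at day 3 and 1472 and 1983 CPM at day 5 (4.63 ± 0.15, adjusted p = 5.63e-06). Podxl, a sialomucin of epithelia, endothelium and stem cells, read 144 and 137 CPM at day 3 and 1074 and 1183 CPM at day 5 (3.01 ± 0.10, adjusted p = 8.58e-07). The 8 largest losses included Dnmt3b and the chaperone genes Hsp90aa1, Hsp90ab1 and Hspa8, of which Hsp90aa1 read 3240.0 and 3253 CPM at day 3 and 1770.0 and 1930.0 CPM at day 5 (-0.81 ± 0.04, adjusted p = 1.23e-06). They also included Eno1, Eef1a1 and Ftl1, which have near-identical copies and are uncertain, and D10Wsu102e.

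Set against the control course, which used other libraries, 5903 genes were called in both, 76.0% of the KO calls and 67.2% of the 8780 control calls (60.8% of all genes tested). Of these 5417 changed in the same direction and 486 in opposite directions, 247 rising and 239 falling in KO. Among the 5417, the change was smaller in KO for 3354 (61.9%). The difference between the courses was called for 3496 genes (24.2%), 1932 higher and 1564 lower in KO. Of the 1932, 617 fell in control and were not called in KO, 435 fell in both and 388 rose in KO and were not called in control. Of the 1564, 540 rose in control and were not called in KO and 403 rose in both. The count fell to 2073 without KO day 3 library 1 and was 5609 without KO day 5 library 1.

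**Figure D5:**
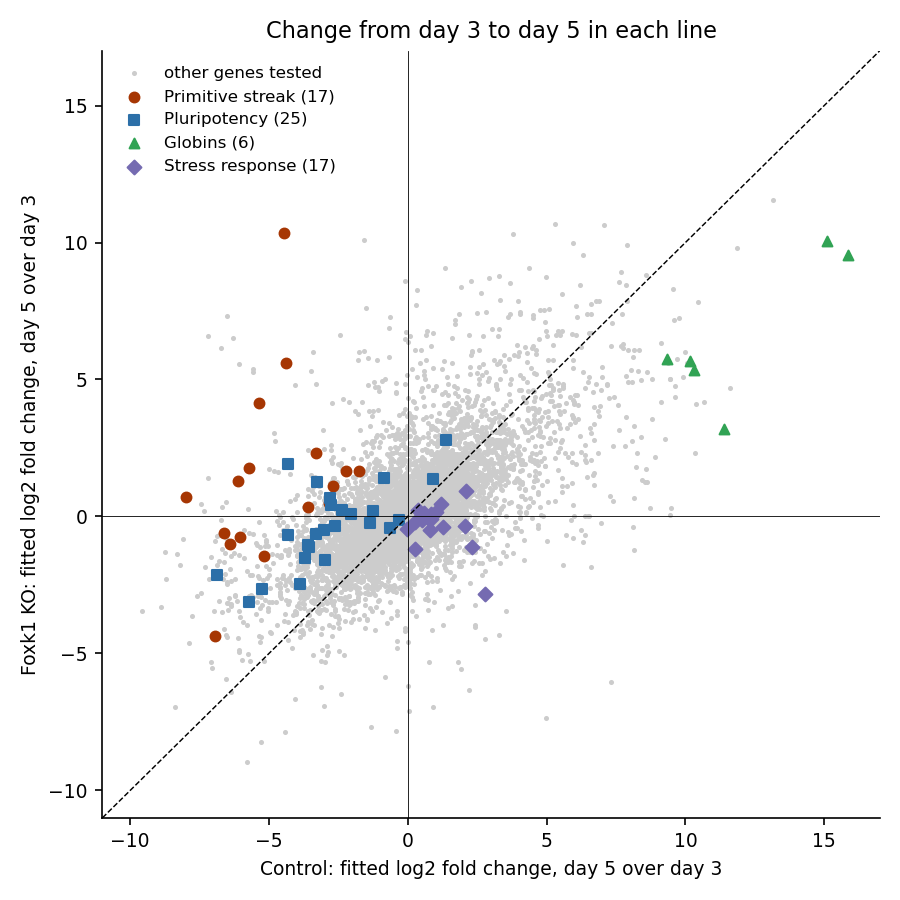
Fitted log2 fold change of day 5 over day 3 for each gene tested, control on the horizontal and KO on the vertical axis, with 4 gene lists in colour and the dashed line of equal change. Streak genes lie left of 0 in control and spread on both sides of 0 in KO, pluripotency genes lie mostly above the dashed line and stress response and globin genes mostly below it, and the globin values rest on few counts at day 3.

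Genes called in KO and for the difference, with fitted changes of opposite sign in the 2 lines, were ranked separately by that difference. Six2, a homeobox gene of mesenchyme and kidney progenitors, read 0.177 and 0.422 CPM at day 3 and 13.3 and 11.7 CPM at day 5 in KO (5.32 ± 0.31, adjusted p = 1.65e-06, but 6.05 without day 3 library 2). In control it read 20.6 and 23.6 CPM at day 3 and 1.88 and 2.09 CPM at day 5, a difference of 8.79 ± 0.38 (adjusted p = 1.29e-06). Aplnr, the apelin receptor of early mesoderm and vessel, read 1.33 and 0.845 CPM at day 3 and 153 and 105 CPM at day 5 in KO (6.88 ± 0.30, adjusted p = 8.29e-06). In control Aplnr read 129.5 and 134 CPM at day 3 and 84.5 and 79.3 CPM at day 5, a difference of 7.57 ± 0.36 (adjusted p = 4.47e-05). In both, the KO day 3 pair was the lowest of the 4 groups and the KO day 5 pair was above the control pair of day 5. In the other direction, Myrf, a membrane-bound transcription factor, read 78.8 and 76.6 CPM at day 3 and 26.2 and 22 CPM at day 5 in KO (-1.69 ± 0.10, adjusted p = 1.53e-06). In control Myrf read 31.3 and 32.8 CPM at day 3 and 346 and 301 CPM at day 5, a difference of -5.03 ± 0.13 (adjusted p = 1.16e-07). Wt1, of epicardium and kidney, read 6.81 and 5.92 CPM at day 3 and 1.99 and 1.22 CPM at day 5 in KO. In control Wt1 read 0.176 and 0.528 CPM at day 3 and 2.38 and 2.58 CPM at day 5, a difference of -4.76 ± 0.63 (adjusted p = 6.79e-04). Myrf and Wt1 thus fell in KO and read higher at day 5 than at day 3 in control.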

How the data were processed

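RNA of whole embryoid bodies was sequenced in pairs of libraries. The deposited table of days 3 and 5 holds estimated counts per gene. Per the submitters' processing notes, kallisto 0.46.2 and the mm10 build were used. Not given in the sources used here are how transcripts were summed to genes, the annotation release, any rounding and the use of strand. The deposited values are whole numbers and were used without further rounding. All 36047 gene IDs matched GENCODE vM21 names.

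Day 5 was compared with day 3 in edgeR 4.0.16 (R 4.3.3) with TMM scaling, filterByExpr, a robust quasi-likelihood fit of the 4 groups of 2 libraries and Benjamini-Hochberg adjustment over 14430 genes, at an adjusted p of 0.05. The difference between the courses was the interaction in the same fit. The common biological coefficient of variation was 0.0915. Folds against groups without counts used a floor of 3 counts over the group, and intervals are exact at 95% and cover counting error only. The script was tested on simulated counts drawn with the same spread in all 4 groups. That test therefore does not bear on false calls from the wider gap between the KO day 5 libraries.

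The comparison, its gene lists and its tests were chosen with earlier results of these data known. Named genes are Foxk1 and Foxk2, up to 4 members of each list by smallest p and up to 4 by mean CPM, the 12 largest rises and falls by fold, the 8 by CPM, and the 8 largest opposite-sign differences each way, among genes of at least 5 CPM; a gene in each of 2 rankings is not reported here. Other members were named for their known roles after their values were seen. Alternatives were DESeq2 1.42.0, its size factors in edgeR, no filter on low counts, a replicate block, the 4 KO libraries alone and leaving out each library. Promoters are from RefSeq. Day 10 was not used here.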

Additional observations from a re-analysis of the deposited data

Results flagged for a closer look

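Each value here was singled out because the KO and control courses differed by edgeR's quasi-likelihood test of the difference itself (adjusted p under 0.05). That test called 3496 genes. Differences are log2 fold changes of KO minus control, and where a group holds few counts the fitted size depends on the prior count.

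The first set rose in KO and had a fitted change below 0 in control. A call in control was not required for either set. The difference was 10.94 for Optc, 9.97 for Lhx1, 9.41 for Cyp26a1, 8.79 for Six2, 8.70 for Mixl1, 8.15 for Gbp2b, 7.76 for Bace2 and 7.57 for Aplnr. Optc, an extracellular matrix proteoglycan gene, read 0.0884 and 0 CPM at day 3 and 1.35 and 3.14 CPM at day 5 in KO. In control Optc read 6.87 and 8.28 CPM at day 3 and 0 and 0.298 CPM at day 5. Bace2, a membrane protease gene, read 0 and 0.0845 CPM at day 3 and 3.7 and 3.23 CPM at day 5 in KO. In control Bace2 read 6.25 and 4.58 CPM at day 3 and 1.49 and 1.69 CPM at day 5. Gbp2b, an interferon-induced GTPase gene, read 0 and 0 CPM at day 3 and 0.542 and 0.0872 CPM at day 5 in KO. In control Gbp2b read 19.6 and 17.3 CPM at day 3 and 1.49 and 2.19 CPM at day 5. In all 3 the control level of day 3 was the highest of the 4 groups, and the KO call of Gbp2b (adjusted p = 0.0312, but adjusted p = 0.0986 without day 3 library 1, adjusted p = 0.105 without day 3 library 2 and adjusted p = 0.199 without day 5 library 1) rested on few counts.

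The second set fell in KO and had a fitted change above 0 in control, whether or not that change was called. The difference was -7.12 for Eef1a2, -5.61 for Chac1, -5.11 for Spon1, -5.03 for Myrf, -5.0 for Ntrk2, -4.96 for Synpo2 and -4.76 for Wt1. Eef1a2, an elongation factor gene of neurons and muscle, read 4.16 and 3.72 CPM at day 3 and 0.0903 and 0.0872 CPM at day 5 in KO. In control Eef1a2 read 1.5 and 1.32 CPM at day 3 and 4.66 and 5.37 CPM at day 5. Ntrk2, the receptor of the neurotrophin BDNF, read 5.66 and 5.58 CPM at day 3 and 0.271 and 0.349 CPM at day 5 in KO. In control Ntrk2 read 0.352 and 1.76 CPM at day 3 and 2.08 and 1.79 CPM at day 5. Synpo2, an actin-binding protein gene of muscle, read 3.71 and 4.22 CPM at day 3 and 1.08 and 1.83 CPM at day 5 in KO. In control Synpo2 read 1.58 and 1.23 CPM at day 3 and 16.8 and 15.9 CPM at day 5. Spon1, a secreted matrix protein gene, read 15.9 and 14.3 CPM at day 3 and 12.2 and 10.6 CPM at day 5 in KO (adjusted p = 0.05, but adjusted p = 0.219 without day 3 library 1, adjusted p = 0.0834 without day 3 library 2 and adjusted p = 0.1 without day 5 library 2). The KO call of Spon1 was also lost with DESeq2 (adjusted p = 0.153) and with the 4 KO libraries alone (0.092). In control Spon1 read 2.02 and 2.29 CPM at day 3 and 63.1 and 50 CPM at day 5.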

How the results depend on the processing

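The number of genes called in the KO course was 7766 and stayed within 1.5 times of that under each alternative: 7788 with DESeq2 size factors, 7689 with no filter, 7610 with the replicate block, 6316 with the 4 KO libraries alone, 5836 with DESeq2, and 5662 to 8703 leaving out each KO library. The number called for the difference between the courses was 3496, with 3482 for size factors, 3476 with no filter and 3370 with the replicate block, but 2309 with DESeq2 and 2073 to 5609 leaving out each library. The lowest was without KO day 3 library 1 and the highest without KO day 5 library 1. The median of the Wnt ligand list was 1.13 with DESeq2 size factors against 1.15. The cause of these moves was not tested.

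Some genes that were not called changed sign when libraries were left out. Over the fits without each KO library in turn, the log2 fold change ran from -0.235 to 0.0696 for Cd68, -0.502 to 1.84 for Chrd, -0.134 to 0.819 for Esrrb, -0.807 to 0.514 for Etv2, -1.91 to 0.0387 for Fgf5, -0.543 to 0.216 for Hoxb1, -0.757 to 2.00 for Klf1, -0.290 to 0.345 for Klf2, -0.0965 to 0.506 for Klf5, -0.156 to 1.78 for Mrc1, -1.80 to 0.377 for Otx2 and -0.0370 to 0.633 for Tbx6. For Etv2 it was also -0.00518 with DESeq2 size factors, -0.00696 with no filter on low counts, -0.0164 with the replicate block and -0.00259 with DESeq2. The other genes named with a log2 fold change or adjusted p kept their direction under all alternatives.

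Replicate numbers pair libraries only by number. Same-numbered libraries did not deviate together (correlation of deviations -0.02 in KO and 0.05 in control), so the block is not a paired test. With the replicate block T, Sp5, Cdh1, Foxa2 and Mesp1 passed the threshold (adjusted p = 0.0395, 0.0288, 0.0315, 0.0318 and 0.0423) and Hbb-bh1 and Ftl1 no longer did (0.0731 and 0.0529). It changed no other call among the genes named with a log2 fold change or adjusted p.

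With 2 libraries a group and 4 residual degrees of freedom, genes of a few counts at day 3 have folds set by counting error. Fits that leave out a library assume that the remaining one varies like the other groups.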

Other observations

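The ferritin light chain gene Ftl1, which stores iron, is among the largest losses in CPM in the KO course, with 4079 and 4132 CPM at day 3 and 2864 and 2659 CPM at day 5 (-0.57 ± 0.16, adjusted p = 0.0301, but adjusted p = 0.0983 without day 3 library 1 and adjusted p = 0.106 without day 3 library 2). The call was also lost with no filter on low counts (adjusted p = 0.0666). In control it read 18.6 and 14.2 CPM at day 3 and 9.71 and 14.9 CPM at day 5, so the lines differed far more than the days. Ftl1 has near-identical copies, to which estimated counts can be assigned in its place. The share of counts on processed pseudogenes was 1.5% to 1.54% in KO at day 3 and 1.28% to 1.29% at day 5. Of 399 processed pseudogenes tested, 55 rose and 85 fell in the KO course. Over all genes tested 28.3% rose and 25.5% fell, so processed pseudogenes were called less often in both directions.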
